A study of Mus musculus with 6 samples.

Results

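Aminoacyl-tRNA synthetases are the enzymes that join each amino acid to its tRNA. The genes described here are 36 named ones, 20 for the cytosolic enzymes and 16 for the mitochondrial enzymes, whose symbols end in 2, out of 30281 gene symbols in the deposited table. The rule lists them by symbol. The values of their 182 transcripts were summed per gene, and all 36 were measured in all 6 libraries, with at least 178 estimated counts (Ears2 in Tsc2-/- MEFs) and at most 47706 (Aars in Tsc2+/+ MEFs).

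The study compared poly(A) RNA of cells with and without Tsc2, the gene of a brake on mTORC1, the kinase complex that rapamycin inhibits. The libraries came from Tsc2+/+ p53-/- and Tsc2-/- p53-/- mouse embryo fibroblasts (MEFs), both untreated, and from 2 lines of Tsc2-null mouse kidney epithelial cells, MKOC and TJ, each untreated or with rapamycin. TJ cells derive from a secondary tumor in C57BL6 mice. The labels give 100 nM rapamycin or diluent for 18 hours in serum-free medium with 0.1% BSA, and 1 library for each line and condition, so the 2 kidney lines are the replicates of the rapamycin comparison and the MEF comparison has none. Nothing says that the libraries of a line came from separate cultures, so the p-values measure the spread between these 4 libraries only.

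Libraries held 22887020 to 37505004 estimated counts. Tsc2 RNA had 22.6 TPM (a share of all transcripts, corrected for transcript length) in Tsc2+/+ and 10.5 in Tsc2-/- MEFs, and 49.1 and 44.0 TPM in untreated and 19.5 and 19.1 TPM in rapamycin-treated MKOC and TJ cells (log2 fold change with rapamycin -1.27, edgeR adjusted p = 2.3e-05), so the libraries labelled Tsc2-null were not free of it, and what is said of genotype rests on the labels. Trp53 RNA, at 26.3 and 28.6 TPM, was present in both MEF libraries labelled p53-/-. Of 9 fibroblast markers, 6 and 8 had at least 1 TPM in Tsc2+/+ and Tsc2-/- MEFs, Thy1 was at 0 in Tsc2+/+ MEFs, and Lum was under 1 TPM in both. Of 10 kidney epithelial markers, 8 had at least 1 TPM in every kidney library, and Epcam and Krt19 did not. Of 5 macrophage markers, 2 or 3 reached 1 TPM in each library, but Ptprc and Adgre1 were at most 0.0732 and 0.0169 TPM. Of 5 endothelial markers, at most 1 did, and Pecam1 was at most 0.388 TPM.

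Mammalian cells hold separate sets of these enzymes for the ribosomes of the cytosol and of the mitochondria, both encoded in the nucleus. Gars and Kars make the enzymes of both compartments from a single gene each, Eprs makes a fused enzyme for glutamate and proline, and phenylalanine takes a cytosolic enzyme of unlike subunits, Farsa and Farsb. No mitochondrial enzyme for glutamine is listed, since mitochondria charge that tRNA by way of glutamate. Many of the cytosolic genes are textbook targets of ATF4, a transcription factor that is induced when amino acids are short and also downstream of mTORC1, and that binds CARE elements in promoters.

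The promoters of the cytosolic genes that hold a CARE are shown first. The changes with rapamycin below include all 20 cytosolic genes, with or without a match. RefSeq promoter windows (GRCm38, 250 bases before to 50 bases after the start of transcription) were matched for 12 of the 20 cytosolic genes and 14 of the 16 mitochondrial genes. The letters TGATGNAAN, read on both strands, were found in 5 of the 12 cytosolic windows, in 0 of 15 mitochondrial windows and in 3.95% of 32851 windows of all genes. The 5 are Aars, Gars, Iars, Tars and Yars. Each line gives the 120 bases before the start and the first 20 bases of the transcript, 5′ to 3′ on the strand of the gene, with the matches in capitals. Qars is added as 1 of the 7 cytosolic genes whose window held no match. With rapamycin Qars rose, but the other 6 (Dars, Eprs, Farsa, Farsb, Kars and Sars) fell, as did the 5 with a match, and Eprs, Farsb and Sars had log2 fold changes of -1.21, -1.22 and -1.09.
Aars (chr8:111033722-111033861, + strand): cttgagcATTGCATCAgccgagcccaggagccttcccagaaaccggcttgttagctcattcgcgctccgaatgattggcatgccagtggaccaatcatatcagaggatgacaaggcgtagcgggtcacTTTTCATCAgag
Gars (chr6:55037881-55038020, + strand): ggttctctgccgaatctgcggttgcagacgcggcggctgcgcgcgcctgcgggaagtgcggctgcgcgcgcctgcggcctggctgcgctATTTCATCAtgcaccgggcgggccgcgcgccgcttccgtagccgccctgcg
Iars (chr13:49682010-49682149, + strand): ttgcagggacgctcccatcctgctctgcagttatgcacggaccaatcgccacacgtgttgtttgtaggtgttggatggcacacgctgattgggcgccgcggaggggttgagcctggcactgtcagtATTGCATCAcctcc
Tars (chr15:11399639-11399778, - strand): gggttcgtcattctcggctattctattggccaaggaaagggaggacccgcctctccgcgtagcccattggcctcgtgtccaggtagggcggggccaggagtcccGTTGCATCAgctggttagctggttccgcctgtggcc
Yars (chr4:129189783-129189922, + strand): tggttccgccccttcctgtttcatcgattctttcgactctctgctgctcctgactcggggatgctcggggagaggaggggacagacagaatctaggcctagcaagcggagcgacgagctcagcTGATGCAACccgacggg
Qars (chr9:108507885-108508024, + strand): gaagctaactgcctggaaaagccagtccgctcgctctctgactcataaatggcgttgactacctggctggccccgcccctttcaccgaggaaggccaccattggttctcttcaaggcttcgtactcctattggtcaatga

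Aars, the alanine enzyme, has 2 matches, which begin 113 bases before the start and at base 9 of the transcript. In Gars, the glycine enzyme, the match begins 31 bases before the start, and in Tars, the threonine enzyme, 16 bases before it. In Iars (isoleucine) and Yars (tyrosine) it begins at base 7 and base 4 of the transcript. All but that of Yars read on the opposite strand. A match is a run of letters, not a measured site. The letters CGCATGCG of the NRF1 motif, a factor known for nuclear genes of mitochondria, were in 0 of the 12 cytosolic windows, in 2 of the 15 mitochondrial windows (Vars2 and Wars2) and in 1.87% of all windows. This short form was chosen after a form longer by 1 base at each end had been found in 0 windows of either set, and in 0.971% of all windows.

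Cytosolic enzymes stood far above mitochondrial ones in every library. Summed over the 20 genes, the level was 4121 TPM in Tsc2+/+ and 5152 TPM in Tsc2-/- MEFs, 4109 and 4134 TPM in untreated MKOC and TJ cells, and 2264 and 2117 TPM after rapamycin. The 16 mitochondrial genes summed to 610.1, 702, 622, 522, 543 and 443 TPM in the same order. The ratio of the sums was 6.75 and 7.34 in the MEFs, 6.60 and 7.92 in untreated MKOC and TJ cells and 4.17 and 4.78 with rapamycin. Lars2 alone made up 33.1% to 61.1% of the mitochondrial sum, and without it the ratios were 16.8, 18.9, 12.8, 12.9, 7.11 and 7.14. Both rapamycin libraries thus had a lower ratio than any of the other libraries, with and without Lars2.

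**Figure D1:**
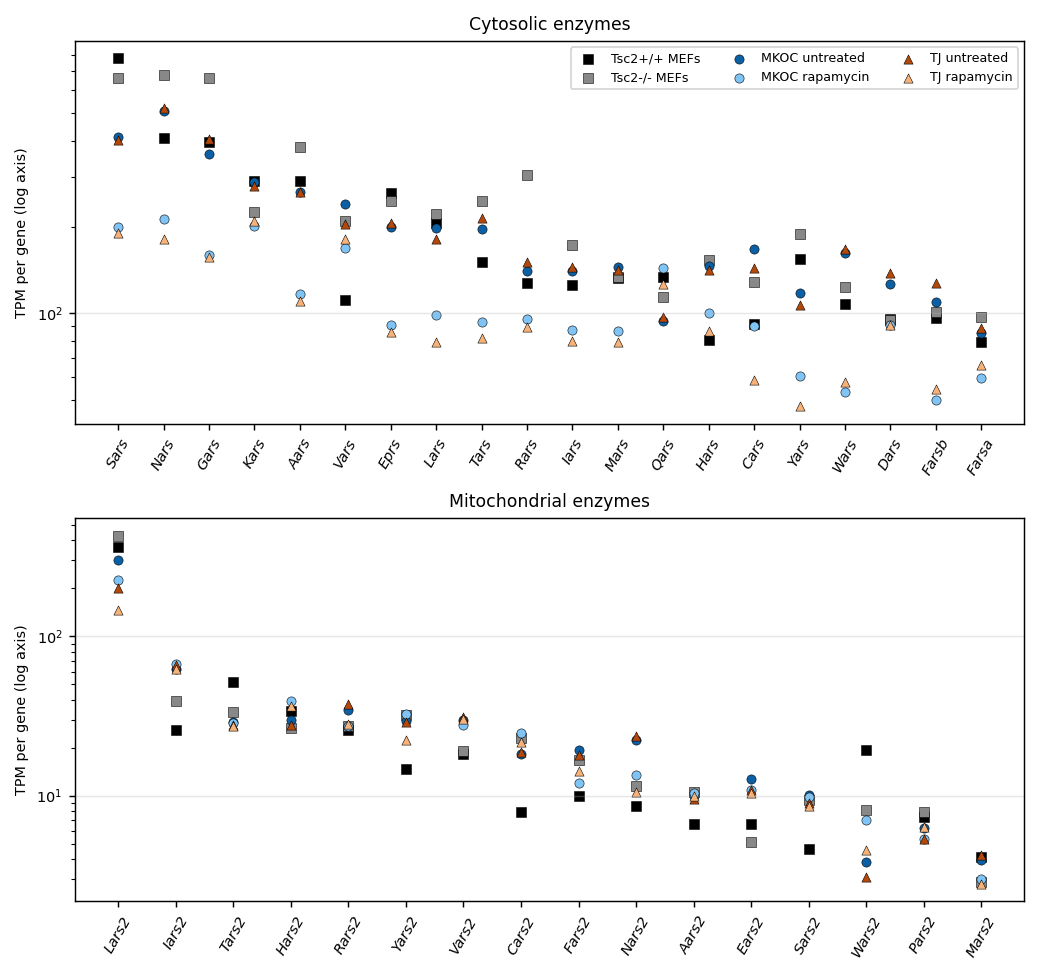
TPM (log axis) of each enzyme gene in the 6 libraries, ordered by mean TPM, cytosolic above and mitochondrial below. Sars, Nars and Gars led the cytosolic set, the pale rapamycin points lie below the dark untreated ones for 19 of 20 cytosolic genes, and Lars2 stood apart from the other mitochondrial genes.

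By mean TPM over the 6 libraries, the 6 highest cytosolic genes were Sars (442), Nars (419), Gars (358), Kars (249), Aars (238) and Vars (186). The lowest were Farsa (79.4), Farsb (89.8) and Dars (106). Among mitochondrial genes, Lars2 (278) was followed by Iars2 (53.8), Tars2 (33.02), Hars2 (32.3), Rars2 (30.1) and Yars2 (26.6), and the lowest were Mars2 (3.49), Pars2 (6.42) and Wars2 (7.63). The order was not fixed. Lars2 ranked 1st and Mars2 15th or 16th of 16 in every library, and Sars ranked 1st to 3rd of 20, but Qars went from 19th in both untreated kidney lines to 6th in both treated ones. Vars ranked 14th in Tsc2+/+ MEFs and 4th in both rapamycin libraries. Wars2 ranked 6th in Tsc2+/+ MEFs and last in both untreated kidney lines. Of the 36 genes, 35 drew most counts from the same transcript in all 6 libraries, and the exception was Pars2.

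The rapamycin comparison asks which RNAs changed when mTORC1 was inhibited in Tsc2-null kidney cells. With rapamycin, 19 of the 20 cytosolic genes fell and 1, Qars, rose, whereas of the 16 mitochondrial genes 5 fell, 1 rose and 10 did not pass the test (edgeR's quasi-likelihood test with cell line as a term, Benjamini-Hochberg adjusted p under 0.05 over 12952 genes). Of all genes tested, 34.9% were called, 17.5% higher and 17.4% lower. The median log2 fold change was -1.09 over the cytosolic genes, -0.05 over the mitochondrial genes and 0.02 over all genes tested. In the fit, 11 cytosolic genes and 1 mitochondrial gene (Nars2) fell at least 2-fold, as did 2.92% of all genes tested. In TPM, both rapamycin libraries lay below both untreated ones for 19 cytosolic and 5 mitochondrial genes (Ears2, Fars2, Mars2, Nars2 and Rars2) and for 28.6% of all genes tested, and above both for Qars, for 4 mitochondrial genes (Aars2, Cars2, Hars2 and Wars2) and for 30% of all genes. Of the cytosolic TPM, 55.1% remained in MKOC cells and 51.2% in TJ cells, and of the mitochondrial TPM, 87.2% and 84.9%. Without Lars2, a setting chosen after seeing the data, 99.1% and 92.3% of the mitochondrial TPM remained. As these are bulk libraries, fewer cells of a kind and less RNA per cell cannot be told apart.

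The calls lean on all 4 libraries. Without the line term, 16 cytosolic genes fell and 0 rose, and 1 mitochondrial gene, Nars2, fell, where 9.84% of all genes were called, 4.32% higher and 5.53% lower. The cytosolic genes no longer called were Kars, Farsa, Qars and Vars (adjusted p = 0.051, 0.055, 0.057 and 0.086), and the mitochondrial ones were Mars2, Fars2, Rars2, Wars2 and Lars2 (adjusted p = 0.066, 0.0898, 0.13, 0.16 and 0.35). When a library is left out the line term is lost too, and 7 cytosolic genes fell without untreated MKOC, 14 without MKOC with rapamycin, 0 without untreated TJ and 10 without TJ with rapamycin, where 96, 613, 0 and 531 of all genes were called. The cytosolic median then lay between -1.15 and -0.89. The 10 kidney epithelial markers summed to 1535 TPM untreated and 2197 TPM with rapamycin in MKOC cells, and to 1743 and 2587 TPM in TJ cells. Most of that difference was in Krt8, Krt18 and Cdh16, and Pax8 (141 and 121 TPM) and Pax2 (14.96 and 12.2 TPM) were lower with rapamycin in MKOC cells. In the same order, fibroblast markers summed to 27.1 and 52.6 TPM and to 8.15 and 14.0 TPM, mostly Dcn. Macrophage markers summed to 25.18 and 32.97 TPM and to 43.1 and 54.2 TPM, though Cd68 was lower with rapamycin in both lines (7.08 and 5.33 TPM, 8.01 and 4.48 TPM), and endothelial markers to 3.71 and 3.24 TPM and to 1.49 and 1.28 TPM. Their part in the result was not tested.

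**Figure D2:**
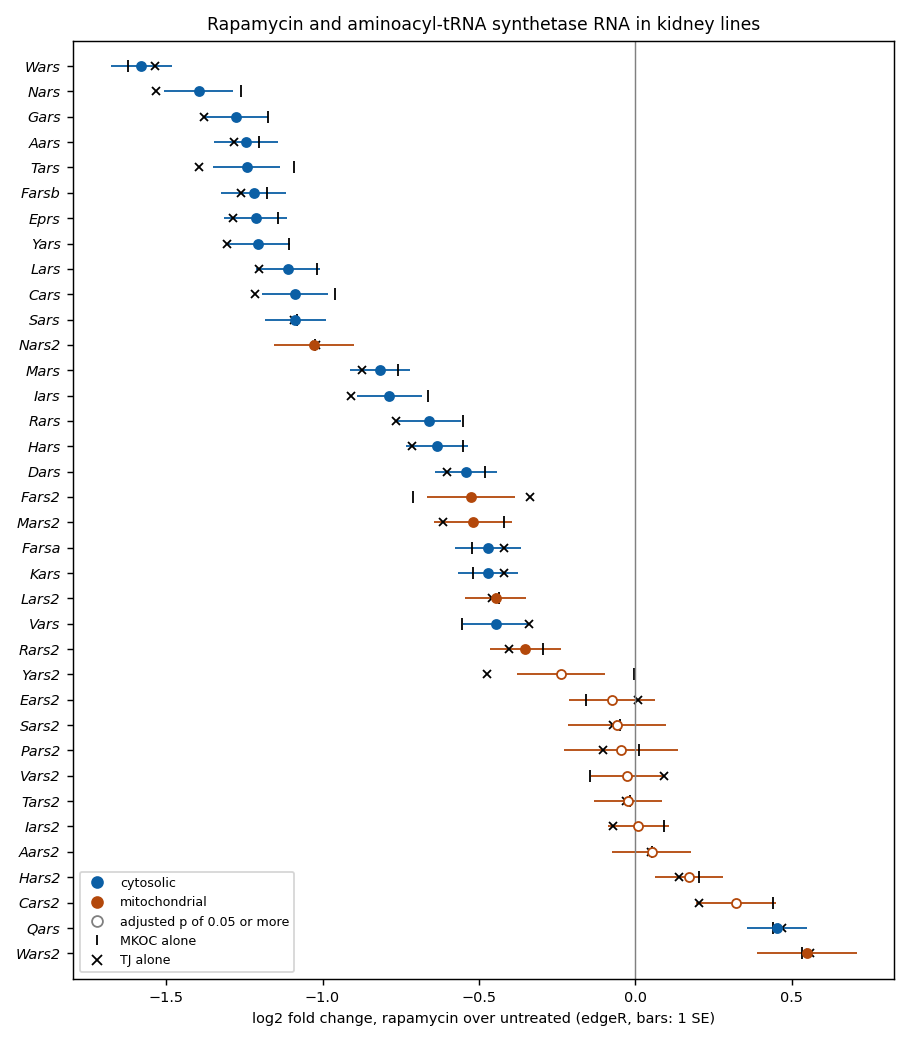
Log2 fold change with rapamycin (circles, with bars of 1 SE) of the 36 genes, blue for cytosolic and orange for mitochondrial, filled where the adjusted p was under 0.05. The SE is derived from the test statistic, which borrows spread across genes. Bars and crosses in black give the change in MKOC and TJ cells alone. Wars lies furthest down at -1.58 and Wars2 furthest up at 0.55.

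The cytosolic genes were split by whether they are held to be ATF4 targets. This list was chosen with earlier results of these data known, so the split is no independent evidence. All 12 of that list fell, with a median log2 fold change of -1.21, against 17.4% called lower and a median of 0.02 over all genes tested. Wars, the tryptophan enzyme, had 108 TPM in Tsc2+/+ and 123 TPM in Tsc2-/- MEFs, and with rapamycin it went from 162 to 53.1 TPM in MKOC and from 167 to 57.6 TPM in TJ cells. It was lower in both treated libraries than in any other and fell the most of all 36 (log2 fold change -1.58, SE 0.10, adjusted p = 7.8e-06). Nars, the asparagine enzyme, had 508 TPM untreated and 213 TPM with rapamycin in MKOC cells against 523 and 182 TPM in TJ cells, and 408 TPM in the Tsc2+/+ and 681 TPM in the Tsc2-/- MEFs. The untreated and treated kidney libraries did not overlap (log2 fold change -1.40, SE 0.11, adjusted p = 2.3e-05). Gars, for glycine, had 396 TPM in Tsc2+/+ and 664 TPM in Tsc2-/- MEFs, and with rapamycin it went from 360.2 to 160.4 TPM in MKOC and from 408 to 157 TPM in TJ cells. It fell in the kidney lines (log2 fold change -1.28, SE 0.10, adjusted p = 2.7e-05), and the Tsc2-/- MEFs stood above all others.

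Aars, for alanine, had 289.5 and 379.6 TPM in the Tsc2+/+ and Tsc2-/- MEFs, 266 and 117 TPM in untreated and rapamycin-treated MKOC cells, and 266 and 110.3 TPM in the same conditions of TJ cells. The treated level was 44.1% of the untreated one in MKOC and 41.5% in TJ cells (log2 fold change -1.24, SE 0.10, adjusted p = 2.9e-05). Tars, for threonine, had 151 TPM in Tsc2+/+ and 247 TPM in Tsc2-/- MEFs, and with rapamycin it went from 198 to 93.3 TPM in MKOC and from 216 to 82.3 TPM in TJ cells. It fell (log2 fold change -1.24, SE 0.11, adjusted p = 3.7e-05), with 47.2% of the untreated TPM left in MKOC and 38.2% in TJ cells. Eprs, for glutamate and proline, had 199.9 TPM untreated and 91.2 TPM with rapamycin in MKOC cells against 206 and 85.9 TPM in TJ cells, and 264 TPM in the Tsc2+/+ and 247 TPM in the Tsc2-/- MEFs. Here the MEFs lay highest and the treated kidney libraries lowest (log2 fold change -1.21, SE 0.10, adjusted p = 3.0e-05). Yars, for tyrosine, had 154 and 189 TPM in the Tsc2+/+ and Tsc2-/- MEFs, 117 and 60.4 TPM in untreated and rapamycin-treated MKOC cells, and 107 and 47.3 TPM in the same conditions of TJ cells. The treated level was 51.5% and 44.1% of the untreated one (log2 fold change -1.21, SE 0.10, adjusted p = 3.3e-05).

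Lars, for leucine, had 206 TPM in Tsc2+/+ and 223 TPM in Tsc2-/- MEFs, and with rapamycin it went from 199 to 98.6 TPM in MKOC and from 182 to 79.2 TPM in TJ cells. The treated libraries were lowest of the 6 (log2 fold change -1.11, SE 0.10, adjusted p = 5.0e-05). Cars, for cysteine, had 168 TPM untreated and 90.3 TPM with rapamycin in MKOC cells against 144 and 58.4 TPM in TJ cells, and 91.9 TPM in the Tsc2+/+ and 129 TPM in the Tsc2-/- MEFs. It fell to 53.7% of the untreated level in MKOC and to 40.7% in TJ cells (log2 fold change -1.09, SE 0.10, adjusted p = 6.9e-05). Sars, for serine, had 778 and 664 TPM in the Tsc2+/+ and Tsc2-/- MEFs, 414 and 201 TPM in untreated and rapamycin-treated MKOC cells, and 404 and 191 TPM in the same conditions of TJ cells. Both MEF libraries lay above all kidney libraries, and the change in the 2 lines was nearly equal, -1.08 and -1.09 on the log2 scale (log2 fold change -1.09, SE 0.10, adjusted p = 4.3e-05).

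Mars, for methionine, had 133 TPM in Tsc2+/+ and 134 TPM in Tsc2-/- MEFs, and with rapamycin it went from 145 to 86.5 TPM in MKOC and from 142 to 79.2 TPM in TJ cells. It fell (log2 fold change -0.82, SE 0.10, adjusted p = 2.4e-04). The gene overlaps Ddit3 on the other strand, and 1.10% of the 31-base words of its transcripts are also in those of Ddit3, which fell further (log2 fold change -2.87), and whether strand was used in the counting is not given in the sources used here. Iars, for isoleucine, had 140.3 TPM untreated and 87.6 TPM with rapamycin in MKOC cells against 145 and 79.8 TPM in TJ cells, and 125 TPM in the Tsc2+/+ and 173 TPM in the Tsc2-/- MEFs. It fell least of the 12 (log2 fold change -0.79, SE 0.10, adjusted p = 4.3e-04), and 14.6% of its 31-base words are shared with Gm4849, so its level is less certain.

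Of the other 8 cytosolic genes, 7 fell and 1 rose, with a median of -0.51, where 17.4% of all genes tested fell and 17.5% rose. Farsb, a subunit of the phenylalanine enzyme, had 96.3 TPM in Tsc2+/+ and 101 TPM in Tsc2-/- MEFs, and with rapamycin it went from 109.7 to 49.7 TPM in MKOC and from 128 to 54.4 TPM in TJ cells. Its partner Farsa had 85.6 TPM untreated and 59.6 TPM with rapamycin in MKOC cells against 89.0 and 65.8 TPM in TJ cells, and 79.1 TPM in the Tsc2+/+ and 97.4 TPM in the Tsc2-/- MEFs. Farsb fell to 45.3% and 42.7% of the untreated TPM (log2 fold change -1.22, SE 0.10, adjusted p = 3.3e-05) and Farsa to 69.6% and 73.9% (log2 fold change -0.47, SE 0.10, adjusted p = 0.0066). Farsb shares 8.13% of its 31-base words with Sgpp2, which it overlaps.

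Rars, for arginine, had 128 and 303 TPM in the Tsc2+/+ and Tsc2-/- MEFs, 140.1 and 95.7 TPM in untreated and rapamycin-treated MKOC cells, and 151 and 89.7 TPM in the same conditions of TJ cells. It fell in both kidney lines (log2 fold change -0.66, SE 0.10, adjusted p = 9.9e-04) and was highest by far in Tsc2-/- MEFs. Hars, for histidine, had 80.7 TPM in Tsc2+/+ and 154 TPM in Tsc2-/- MEFs, and with rapamycin it went from 146 to 100.2 TPM in MKOC and from 142 to 86.7 TPM in TJ cells. It fell (log2 fold change -0.63, SE 0.10, adjusted p = 0.0011), and 8.42% of its 31-base words are shared with Hars2, a neighbour on the other strand. Dars, for aspartate, had 126 TPM untreated and 91.4 TPM with rapamycin in MKOC cells against 138 and 91.2 TPM in TJ cells, and 95.6 TPM in the Tsc2+/+ and 94.5 TPM in the Tsc2-/- MEFs. The treated kidney libraries came to about the level of the MEFs (log2 fold change -0.54, SE 0.10, adjusted p = 0.0023).

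Kars, for lysine in both compartments, had 290.5 and 225 TPM in the Tsc2+/+ and Tsc2-/- MEFs, 288 and 202 TPM in untreated and rapamycin-treated MKOC cells, and 279 and 209 TPM in the same conditions of TJ cells. It kept 70.3% and 75.0% of its untreated TPM (log2 fold change -0.47, SE 0.10, adjusted p = 0.0045). Vars, for valine, had 112 TPM in Tsc2+/+ and 209.8 TPM in Tsc2-/- MEFs, and with rapamycin it went from 242 to 169 TPM in MKOC and from 204 to 182 TPM in TJ cells. It fell least of the cytosolic genes (log2 fold change -0.45, SE 0.10, adjusted p = 0.0081), and in limma on log2 TPM its adjusted p was 0.056. Qars, the glutamine enzyme, had 94.1 TPM untreated and 143 TPM with rapamycin in MKOC cells against 96.8 and 127 TPM in TJ cells, and 134 TPM in the Tsc2+/+ and 114 TPM in the Tsc2-/- MEFs. It was the only cytosolic gene above its untreated level in both lines, at 152% and 131% (log2 fold change 0.45, SE 0.10, adjusted p = 0.005). Without the line term its adjusted p was 0.057, and it was called in none of the fits that leave out a library.

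Enzymes that sit in the multi-synthetase complex, an assembly of cytosolic synthetases (Eprs, Iars, Lars, Mars, Qars, Rars, Kars and Dars), gave 7 lower and 1 higher with a median of -0.72, and the 12 cytosolic genes outside it were all lower, with a median of -1.21. By the fold of the catalytic domain, the class I genes gave 8 lower and 1 higher of 9 (median -0.82) and the class II genes 10 lower of 10 (median -1.15), with Eprs, which has both, left out. Of all genes tested, 17.4% were called lower and 17.5% higher. The members of these lists overlap, and no list was tested against another. In 15 of the 19 genes that fell, the change was larger in TJ than in MKOC cells, as in 51.7% of all genes called lower, with 1 library per line and condition and no test.

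Of the mitochondrial genes, 5 fell. Nars2, for asparagine, had 8.55 TPM in Tsc2+/+ and 11.5 TPM in Tsc2-/- MEFs, and with rapamycin it went from 22.2 to 13.5 TPM in MKOC and from 23.6 to 10.5 TPM in TJ cells. The treated libraries lay below both untreated ones and near the MEFs (log2 fold change -1.03, SE 0.13, adjusted p = 3.0e-04). Lars2, for leucine, had 365 and 429 TPM in the Tsc2+/+ and Tsc2-/- MEFs, 301 and 224 TPM in untreated and rapamycin-treated MKOC cells, and 200.4 and 146 TPM in the same conditions of TJ cells. It was lower with rapamycin in both lines (log2 fold change -0.45, SE 0.10, adjusted p = 0.0065), and the untreated TJ library lay below the treated MKOC one. Without the line term its adjusted p was 0.35, and with 1 library left out as well the value was -0.11 without untreated MKOC, -0.17 without TJ with rapamycin, -0.72 without untreated TJ and -0.80 without MKOC with rapamycin, none of them called. The symbol AA474408, whose transcripts share 0.673% of the 31-base words of Lars2, was also measured. The ratio of Lars2 to it lay between 4.32 and 4.92 in all 6 libraries. Whether reads of shared sequence add to the Lars2 level was not tested, so that level is less certain.

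Mars2, for methionine, had 4.09 TPM in Tsc2+/+ and 2.89 TPM in Tsc2-/- MEFs, and with rapamycin it went from 3.95 to 2.98 TPM in MKOC and from 4.26 to 2.79 TPM in TJ cells. Levels were low throughout, and it fell (log2 fold change -0.52, SE 0.12, adjusted p = 0.0093), though not in limma, with an adjusted p of 0.14. Fars2, for phenylalanine, had 19.4 TPM untreated and 12.0 TPM with rapamycin in MKOC cells against 18.1 and 14.4 TPM in TJ cells, and 9.95 TPM in the Tsc2+/+ and 16.8 TPM in the Tsc2-/- MEFs. It fell (log2 fold change -0.52, SE 0.14, adjusted p = 0.016), with an adjusted p of 0.056 in DESeq2. Rars2, for arginine, had 25.8 and 27.4 TPM in the Tsc2+/+ and Tsc2-/- MEFs, 34.2 and 27.2 TPM in untreated and rapamycin-treated MKOC cells, and 37.4 and 28.2 TPM in the same conditions of TJ cells. Of the 5 it fell by the smallest amount (log2 fold change -0.35, SE 0.11, adjusted p = 0.036), and was not called in DESeq2 (adjusted p = 0.14) or with upper-quartile scaling.

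Wars2, for tryptophan, was the mitochondrial gene that rose. It had 19.2 TPM in Tsc2+/+ and 8.10 TPM in Tsc2-/- MEFs, and with rapamycin it went from 3.82 to 7.01 TPM in MKOC and from 3.08 to 4.58 TPM in TJ cells. Both treated libraries lay above both untreated ones (log2 fold change 0.55, SE 0.16, adjusted p = 0.023), and DESeq2 did not call it (adjusted p = 0.13). The cytosolic Wars fell in the same libraries, so the tryptophan genes moved apart. Cars2, for cysteine, had 18.2 TPM untreated and 24.9 TPM with rapamycin in MKOC cells against 18.7 and 21.7 TPM in TJ cells, and 7.90 TPM in the Tsc2+/+ and 23.0 TPM in the Tsc2-/- MEFs. It did not pass the test (log2 fold change 0.32, SE 0.13, adjusted p = 0.076), and 19.7% of its 31-base words are shared with Carkd.

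The other 9 did not pass either. Iars2, for isoleucine, had 25.9 TPM in Tsc2+/+ and 39.1 TPM in Tsc2-/- MEFs, and with rapamycin it went from 62.5 to 66.6 TPM in MKOC and from 65.9 to 62.5 TPM in TJ cells (log2 fold change 0.01), and shares 22.4% of its words with Rab3gap2. Tars2, for threonine, had 29.0 TPM untreated and 28.7 TPM with rapamycin in MKOC cells against 27.9 and 27.4 TPM in TJ cells, and 51.5 TPM in the Tsc2+/+ and 33.6 TPM in the Tsc2-/- MEFs (log2 fold change -0.02). In the kidney libraries these genes stayed between 62.5 and 66.6 TPM and between 27.4 and 29.0 TPM. Hars2, for histidine, had 34.0 and 26.5 TPM in the Tsc2+/+ and Tsc2-/- MEFs, 30.0 and 39.0 TPM in untreated and rapamycin-treated MKOC cells, and 27.8 and 36.5 TPM in the same conditions of TJ cells (log2 fold change 0.17, adjusted p = 0.25), and limma called it higher (adjusted p = 0.034).

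Yars2, for tyrosine, had 14.8 TPM in Tsc2+/+ and 32.0 TPM in Tsc2-/- MEFs, and with rapamycin it went from 29.3 to 32.4 TPM in MKOC and from 28.8 to 22.3 TPM in TJ cells (log2 fold change -0.24, adjusted p = 0.22). The lower level with rapamycin was in TJ cells only, and the difference between the lines was not tested. Pars2, for proline, had 6.30 TPM untreated and 5.32 TPM with rapamycin in MKOC cells against 5.30 and 6.34 TPM in TJ cells, and 7.33 TPM in the Tsc2+/+ and 7.94 TPM in the Tsc2-/- MEFs (log2 fold change -0.05). Vars2, for valine, had 18.2 and 19.2 TPM in the Tsc2+/+ and Tsc2-/- MEFs, 29.6 and 27.8 TPM in untreated and rapamycin-treated MKOC cells, and 31.1 and 30.4 TPM in the same conditions of TJ cells (log2 fold change -0.03). The last 3, Aars2, Ears2 and Sars2, for alanine, glutamate and serine, ranged from 4.63 to 12.8 TPM over the 6 libraries, with log2 fold changes of 0.05, -0.08 and -0.06.

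Set side by side by amino acid, 16 pairs of a cytosolic and a mitochondrial enzyme can be formed. In 15 the cytosolic RNA was the higher in all 6 libraries. Leucine was the exception, with a ratio of Lars to Lars2 of 0.565 and 0.520 in the Tsc2+/+ and Tsc2-/- MEFs, 0.660 and 0.440 in untreated and treated MKOC cells, and 0.906 and 0.541 in TJ cells. The level of Lars2, which kept a near-constant ratio to AA474408, is less certain, and so is this exception. With rapamycin the ratio was lower in both lines for all 16 pairs, with a median of 54.0% of the untreated ratio left in MKOC and 53.3% in TJ cells. The tryptophan pair moved most, from 42.5 to 7.58 in MKOC and from 54.4 to 12.6 in TJ cells. The asparagine pair, in which both genes fell, kept 69.2% and 78.1% of its ratio. These are descriptions, with no test. Eprs stands in both the glutamate and the proline pair.

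**Figure D3:**
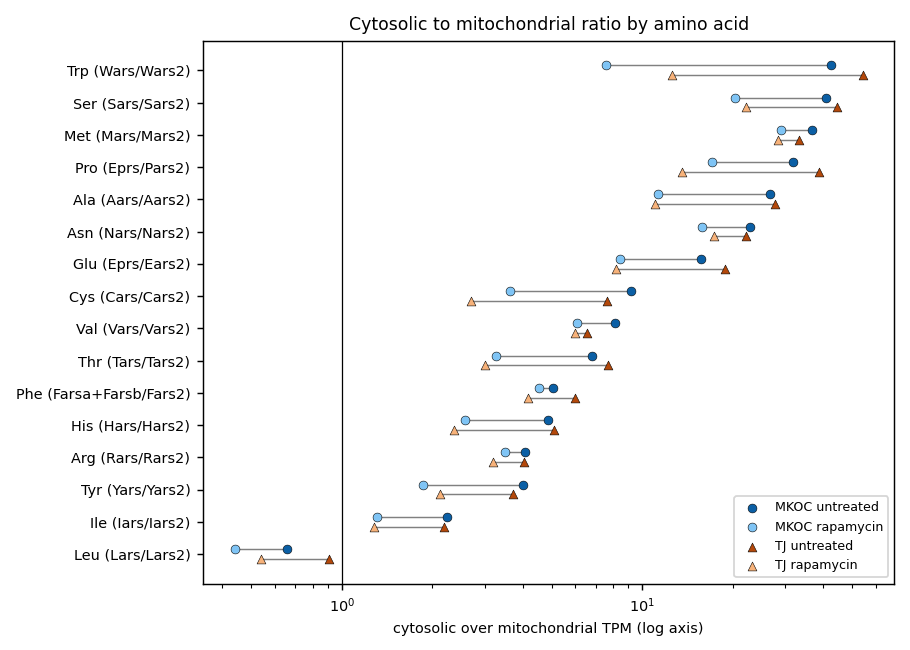
Ratio of cytosolic to mitochondrial TPM (log axis) for each amino acid in untreated (dark) and rapamycin-treated (pale) MKOC and TJ cells, joined by a line per cell line. Every pale point lies left of its dark partner, and the leucine pair alone lies below 1.

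Genes that work beside the synthetases were also counted. Of 14 charging partners, 3 fell and 0 rose, with a median of -0.19, where 17.4% of all genes tested fell. They were Eef1e1, a scaffold protein of the multi-synthetase complex (87.7, 49.3 TPM untreated and treated in MKOC, 103 and 47.5 TPM in TJ cells, log2 fold change -0.98, SE 0.12, adjusted p = 2.7e-04), Aarsd1, an editing factor for misloaded alanine tRNA (log2 fold change -0.90, SE 0.15, adjusted p = 0.0015), and Sepsecs, of selenocysteine tRNA synthesis (log2 fold change -0.42, SE 0.11, adjusted p = 0.015). The other scaffold genes, Aimp1 and Aimp2, did not pass the test (-0.20 and -0.08). Of 8 translation factors, most of them for the delivery of charged tRNA to ribosomes, 3 fell, again beside 17.4% of all genes. These were Eef1g of the cytosol (-0.43, adjusted p = 0.015) and Tufm and Gfm1 of the mitochondria (-0.69 and -0.75, adjusted p = 8.5e-04 and 8.4e-04). Eef1a1, which brings charged tRNA to the cytosolic ribosome, had 0.30 and an adjusted p of 0.13.

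The list of amino acid response genes holds Atf4, the kinases Eif2ak4 and Eif2ak3 that act upstream of it, and genes known to lie downstream, and it gave 13 lower and 1 higher of 16, with a median of -1.36, against 17.4% lower and 17.5% higher of all genes tested. Atf4 itself had 575 TPM untreated and 309.5 TPM with rapamycin in MKOC cells against 568 and 250.1 TPM in TJ cells, and 479 TPM in the Tsc2+/+ and 648 TPM in the Tsc2-/- MEFs (log2 fold change -1.05, SE 0.11, adjusted p = 1.1e-04). Asns, which makes asparagine, had 326 TPM in Tsc2+/+ and 528 TPM in Tsc2-/- MEFs, and with rapamycin it went from 315 to 119 TPM in MKOC and from 324 to 99.2 TPM in TJ cells (log2 fold change -1.56, SE 0.11, adjusted p = 1.4e-05). Trib3 and Ddit3, both stress genes downstream of ATF4, fell further (log2 fold change -2.62 and -2.87). Psat1, Phgdh and Shmt2, of serine and glycine synthesis, had -1.37, -0.74 and -1.43. The 1 that rose was Eif2ak3, the kinase PERK (0.32, adjusted p = 0.047), and Cebpb and Eif2ak4 did not pass. This list holds targets that were known to fall in these libraries when it was written, so its direction is no independent evidence.

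**Figure D4:**
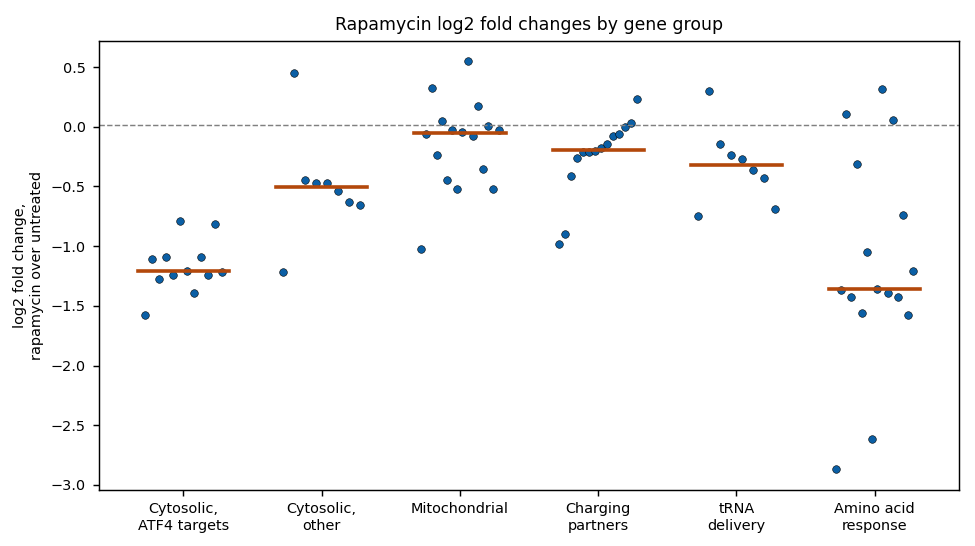
Log2 fold change with rapamycin of each gene (points) in 6 groups, with the group median (orange bar) and the median of all genes tested, 0.02 (dashed line). Medians were -1.21 for cytosolic ATF4 targets, -0.51 for the other cytosolic enzymes, -0.05 for mitochondrial enzymes, -0.19 for charging partners, -0.32 for the group labelled tRNA delivery and -1.36 for the amino acid response. The lists were chosen with earlier results of these data known.

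The lines were also compared. In TJ against MKOC cells, 2 of the 36 were called, Cars and Lars2, both lower in TJ cells, where 8.79% of all genes tested were called, 5.47% higher and 3.32% lower in TJ cells, so the count of the 36 is near that background. Lars2 had 301 and 224 TPM in untreated and treated MKOC cells and 200.4 and 146.5 TPM in TJ cells, with no overlap between the lines (log2 fold change -0.62, SE 0.10, adjusted p = 0.0045). Cars had 168 and 90.3 TPM in MKOC against 144 and 58.4 TPM in TJ, so the lines overlapped (log2 fold change -0.41, SE 0.10, adjusted p = 0.036). DESeq2 and limma did not call Cars (adjusted p = 0.054 and 0.095). Neither gene was called without the treatment term or with any library left out. Those fits put the treatment difference into the spread within a line, or leave a line with 1 library. The loss is thus not read as particular to these genes. Without untreated MKOC, where each line's treatments are no longer balanced, the value for Cars was 0.19, and without TJ with rapamycin 0.11. Without untreated TJ, or without MKOC with rapamycin, the value was negative and larger in size than in the main fit.

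The MEF comparison asks what differs between cells with and without Tsc2. With 1 library for each genotype it has no replicate check and no p-value. With 1 added to each TPM, 3 of the 36 genes were at least 2-fold higher in Tsc2-/- MEFs, 1 was at least 2-fold lower and 32 were neither, where 30.4% of 12771 genes with at least 1 TPM were past 2-fold, 25.2% higher and 5.18% lower. As CPM of TMM-scaled counts the balance of these calls was the other way, with 1 gene (Cars2) at least 2-fold higher and 3 (Mars2, Tars2 and Wars2) at least 2-fold lower, where 17.6% of all genes were higher and 11.6% lower. The median log2 fold was 0.29 over the cytosolic and 0.17 over the mitochondrial genes, both under the median of 0.45 over all genes. Of the 36, 26 were above 0, as were 73.8% of all genes, and 14 were above the median of all genes. With TPM scaled to a median ratio of 1, the medians were -0.09 and -0.20, and as CPM of TMM-scaled counts -0.19 and -0.24, so neither set has a direction that holds under every scaling. Transcripts under 300 bases took 20.9% of TPM in Tsc2+/+ and 7.12% in Tsc2-/- MEFs. With them left out, the medians were 0.06 and -0.05.

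Rars had 128 TPM (95% Wilson interval 125 to 131) in the Tsc2+/+ library, while the Tsc2-/- library had 303 TPM (297 to 309.7). It was 2.37-fold higher without Tsc2 by label, and its log2 fold fell from 1.24 to 0.85 with TPM scaled and to 0.76 as CPM, both under 2-fold. Cars2 had 7.90 TPM (95% Wilson interval 7.17 to 8.70) in the Tsc2+/+ library, while the Tsc2-/- library had 23.0 TPM (21.2 to 24.9), 2.69-fold higher, and stayed past 2-fold under each scaling and pseudocount run. Yars2 had 14.8 TPM (95% Wilson interval 13.7 to 16.0) in the Tsc2+/+ library, while the Tsc2-/- library had 32.0 TPM (29.6 to 34.6), 2.09-fold higher, and was under 2-fold with 5 TPM added, with TPM scaled, without short transcripts and as CPM. Wars2 had 19.2 TPM (95% Wilson interval 18.4 to 20.02) in the Tsc2+/+ library, while the Tsc2-/- library had 8.10 TPM (7.39 to 8.88), a fold of 0.450, and was under 2-fold lower with 5 TPM added. The intervals cover counting error only. Of the most abundant genes, Nars and Gars had a fold of 1.67 in Tsc2-/- over Tsc2+/+ MEFs, whereas Sars had a fold of 0.854 and Kars of 0.775. The 12 ATF4 targets had a median log2 fold of 0.34 and the amino acid response genes 0.44, near the 0.45 over all genes. Kidney epithelial markers summed to 0.253 TPM in Tsc2+/+ and 78.0 TPM in Tsc2-/- MEFs, mostly Krt19 and Krt18, and fibroblast markers to 1825 and 2524 TPM. Macrophage markers summed to 5.37 and 17.8 TPM and endothelial markers to 0.302 and 1.81 TPM. Their part in these differences was not tested.

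**Figure D5:**
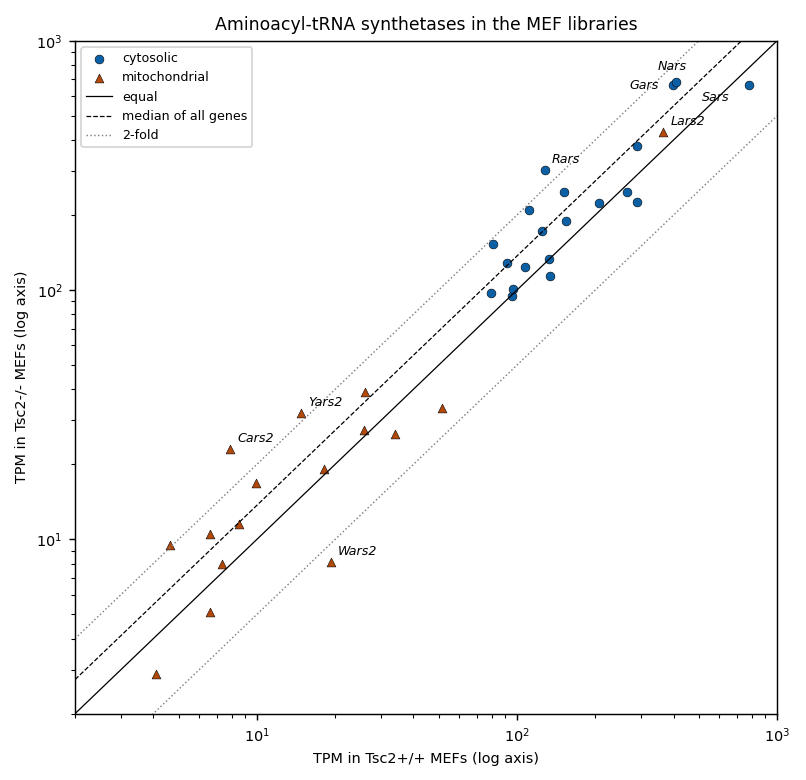
TPM in Tsc2-/- against Tsc2+/+ MEFs (log axes) for the 36 genes, blue circles for cytosolic and orange triangles for mitochondrial, with lines for equal levels, for the median of all genes and for 2-fold. Rars, Cars2 and Yars2 lie past 2-fold above and Wars2 past 2-fold below.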

How the data were processed

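Poly(A) RNA of 6 mouse libraries was sequenced from a stranded kit. The authors trimmed reads with Trimmomatic 0.32 and ran Kallisto (version not given in the sources used here), and deposited estimated counts and TPM per transcript, with lengths in bases, for 88198 transcripts. The identifiers are Ensembl mouse transcripts, although the methods speak of a human reference. A second deposited file holds the authors' fold change between the MEF libraries, a ratio, of which only the gene symbols were used. The symbol was missing for 1006 transcripts, 0.372% to 0.468% of counts, which were left out, and the first symbol was used for 8 transcripts with 2.

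Estimated counts were summed per symbol, rounded, filtered with filterByExpr and TMM-normalized. The 4 kidney libraries entered edgeR's quasi-likelihood test with terms for cell line and treatment (1 residual degree of freedom). Each SE is the size of the log2 fold change divided by the square root of the test statistic F. That statistic borrows spread across genes, so the SE is not a gene's own replicate spread. The pairing comes from the cell line that the labels name: over 12952 genes, the deviations of a line's 2 libraries from their treatment means correlated at 0.562. MEF folds are on the log2(TPM + 1) scale, which understates changes of low genes. Named with values in every library were members that passed the rapamycin test, the 6 highest and 3 lowest by mean TPM in each compartment, members whose 2 kidney lines differed by at least 0.2 in opposite directions (log2), and those past 2-fold in the MEFs. Some others were named as well, and a gene of the lists is not reported here. The members, lists and motifs were chosen with earlier results of these data known. Sharing was counted over 31-base words of GENCODE M21 transcripts. On simulated counts for the rapamycin comparison, 200 of 200 changed genes among 12677 were recovered, with 7 false calls. In the data far more genes were called, 4526 of 12952. Recovery of fold changes as small as that of Rars2 (log2 fold change -0.35) was not tested. Alternatives were other normalizations, filters, pseudocounts, DESeq2 1.42.0, limma 3.58.1, fits without the line term and without each library. edgeR was 4.0.16, R 4.3.3, Python 3.11.15 and pandas 2.3.3.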

Additional observations from a re-analysis of the deposited data

Results flagged for a closer look

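In 4 mitochondrial genes that did not pass the rapamycin test, the change had opposite signs in the 2 kidney lines, which was not tested. The log2 change in TJ cells minus that in MKOC cells was 0.17 for Ears2 (0.01 against -0.16), -0.17 for Iars2 (-0.07 against 0.09), -0.12 for Pars2 (-0.10 against 0.01) and 0.23 for Vars2 (0.09 against -0.14). These changes are from counts, and in TPM only Iars2 of the 4 kept the sign in each line. Ears2 was lower with rapamycin in both lines (12.8 to 10.8 in MKOC, 10.9 to 10.4 in TJ cells), as was Vars2 (29.6 to 27.8, 31.1 to 30.4), and Pars2 moved the other way in each line (6.30 to 5.32, 5.30 to 6.34). All 4 differences rest on 1 library per line and condition.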

How the results depend on the processing

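Beside the edgeR values of the report, 19 cytosolic genes were lower and 1 higher with rapamycin under upper-quartile scaling, in DESeq2, without a filter on low counts and with transcripts of at least 300 bases, and 18 were lower in limma on log2 TPM. Of the mitochondrial genes, DESeq2 gave 3 lower and 0 higher, and limma 4 lower and 2 higher, where the calls over all genes went from 4526 to 3044 and 3649. With no replicate block, that is without the cell line term, 16 cytosolic genes were lower and 0 higher, and 1 mitochondrial gene was lower and 0 higher. With 1 library left out (the line term then goes too), 0 (untreated TJ left out), 7 (untreated MKOC), 10 (TJ with rapamycin) or 14 (MKOC with rapamycin) cytosolic genes were lower and 0 higher, and 0 to 1 mitochondrial genes were lower and 0 higher. The cytosolic median was then -0.975 without untreated MKOC, -0.888 without TJ with rapamycin and otherwise between -1.15 and -1.12. The mitochondrial median was -0.0049 without untreated MKOC, -0.1123 without MKOC with rapamycin, -0.1263 without untreated TJ and 0.0051 without TJ with rapamycin, and -0.0182 with upper-quartile scaling. Among mitochondrial genes that were not called, signs turned for Tars2 (0.0118) and Vars2 (0.0084) with upper-quartile scaling, Iars2 in DESeq2 (-0.0021) and Pars2 in limma (0.0059), and with 1 library left out for Ears2 (0.0535), Iars2 (-0.021 and -0.0485), Sars2 (0.0309 and 0.0365), Tars2 (0.0111 and 0.0164), Vars2 (0.0468 and 0.0081) and Yars2 (0.0169).

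In TJ against MKOC cells, the cytosolic gene was not called (0) in DESeq2 or limma. With no replicate block, which in this comparison is the fit without the treatment term, the calls of both genes were lost. That fit puts the treatment difference into the spread within each line for every gene, so the loss is not read as particular to these genes. With 1 library left out, which leaves a line with 1 library, the calls were lost too. Cars was then at 0.11 to 0.19 in the fits that turned its sign.

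In the MEFs, the cytosolic median was 0.295 with 0.1 TPM added, 0.283 with 5 TPM, 0.0633 without transcripts under 300 bases, -0.0938 with TPM scaled to a median ratio of 1 and -0.19 as CPM. The mitochondrial median was 0.15 with 5 TPM added, -0.0521 without short transcripts, -0.20 scaled and -0.24 as CPM. With TPM scaled or as CPM, 0 cytosolic genes were 2-fold higher. The mitochondrial genes at least 2-fold higher were 1 with 5 TPM added, scaled, without short transcripts and as CPM, and those at least 2-fold lower were 0 with 5 TPM added and 3 as CPM.

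The ratio of cytosolic to mitochondrial TPM, taken over medians in place of sums, was 10.8 and 11.1 in Tsc2+/+ and Tsc2-/- MEFs, 7.94 and 7.51 in untreated MKOC and TJ cells and 4.93 and 4.79 in treated MKOC and TJ cells. Without Lars2, a setting chosen after seeing the data, the ratio of sums was 16.8, 18.9, 12.8, 12.9, 7.11 and 7.14 in the order of the report. The causes of these differences were not tested. The lowest estimated count of any of the 36 genes in a library was 178.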
